A study of Mus musculus with 36 samples.

Results

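Utp20 and 9 further ribosome assembly factors (Nop56, Nop58, Fbl, Ncl, Bop1, Rrp12, Nop2, Pes1 and Wdr43) were followed in mouse kidney under a high-fat diet and under normal chow. The members were chosen by gene symbol, 10 of the 24883 rows of the deposited tables. Utp20 was taken because its daily rhythm differed between the diets in these same libraries, so its rhythm and its differences at single times are given below as a description, with no test. The other 9 were taken as well-known factors of the same process.

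RNA from whole kidneys of male, wild-type C57BL/6J mice was sequenced. The mice had a high-fat diet or normal chow, both freely available from 6 weeks of age on a cycle of 12 h light and 12 h dark, and the labels give 16 weeks for the harvest. Each diet was sampled at zeitgeber time (ZT, hours after lights on) 0, 4, 8, 12, 16 and 20 with 3 mice per time, 18 libraries per diet and 36 in all. The label tag that carries the diet names ZT3 and does not explain it.

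Ribosomes are built in the nucleolus. RNA polymerase I transcribes a long precursor of the ribosomal RNAs, which is cut, modified by small nucleolar ribonucleoproteins (snoRNPs) and folded together with ribosomal proteins by a large set of assembly factors. The precursor of the small subunit is handled by the small subunit processome, to which Utp20 and Wdr43 belong. Nop56, Nop58 and the methyltransferase Fbl (fibrillarin) form the core of the box C/D snoRNPs, which methylate ribose in ribosomal RNA. Bop1 and Pes1 act in 1 complex on the large subunit, and Nop2 methylates large subunit RNA. Ncl (nucleolin) acts on ribosomal RNA transcription and early processing, and Rrp12, known best from yeast, acts in the maturation and export of both subunits.

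Levels are in FPKM, which divides the fragments of a transcript by its length and by the library's mapped total. Relative depth, read from the steps between low values, ranged from 0.358 to 1.5 between high-fat libraries and from 0.429 to 1.54 between chow libraries, while absolute depth is unknown. The summed level of 8 kidney markers lay between 3410 and 4130 FPKM in high-fat and between 3110 and 4210 FPKM in chow libraries, with no marker at 0 in all libraries of a diet. Transcripts of neighbouring tissue were also present. The sum of 8 adipocyte markers had a median of 297 FPKM (89 to 824) under the high-fat diet and 856 FPKM (209 to 2950) under chow, with no marker at 0 in all libraries of a diet. Adipoq, the fat hormone adiponectin, had a median of 17.5 FPKM in high-fat and 41.6 FPKM in chow libraries. The sum of 10 adrenal markers stayed at or below 4.67 FPKM in high-fat libraries, with the chromaffin enzyme Th at 0 in all of them, and reached 4230 FPKM in chow libraries. Cyp21a1, an adrenal steroid hydroxylase, exceeded 1 FPKM in 4 libraries, all on chow. They were ZT0 replicate 5, ZT4 replicates 2 and 3 and ZT16 replicate 4. Sums of 6 immune markers lay between 17.6 and 99.4 FPKM in high-fat and between 21.2 and 68.9 FPKM in chow libraries. Those of 5 markers of dividing cells lay between 1.72 and 4.93 FPKM in high-fat and between 1.44 and 3.43 FPKM in chow libraries. No marker of either list was at 0 in all libraries of a diet.

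Utp20 (ENSMUSG00000004356.8) occupies chr10:88746607-88826804 on the minus strand (GENCODE M21 annotation of GRCm38, that is mm10) and spans 80.2 kb. The start windows of the members are shown because E-boxes, the sequence CACGTG read by the MYC and clock families of transcription factors, lie in several of them. RefSeq windows (GRCm38.p6) from 250 bases before to 50 bases after the start were at hand for 7 members. CACGTG, searched on both strands, was found in 4 of these 7 windows, against 7.15% of all 32851 windows. The 4 sites follow, 5′ to 3′ on the gene's strand, with the E-box in capitals.
Nop2, plus strand of chr6:125131811-125131840: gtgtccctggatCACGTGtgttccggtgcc
Utp20, minus strand of chr10:88826765-88826789: cggcactaactaCACGTGaggaaaa
Pes1, plus strand of chr11:3963965-3963994: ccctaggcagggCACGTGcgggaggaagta
Wdr43, plus strand of chr17:71616220-71616249: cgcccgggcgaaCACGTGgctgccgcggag
The E-box began 60 bases before the start in Nop2, and on the base numbered 38 after it in Utp20, 3 in Pes1 and 18 in Wdr43. As given below, Utp20, chosen from these data, was higher under the high-fat diet and Nop2 lower, while Pes1 and Wdr43 did not pass. Over all genes tested 5.25% were called higher and 11.4% lower. The 250 bases before the start of Utp20, the member with the largest change, hold 1 CCAAT box, in capitals, a motif found in 2 of the 7 member windows (Nop56 and Utp20) and in 37.4% of all windows.
Utp20, minus strand of chr10:88826815-88827064: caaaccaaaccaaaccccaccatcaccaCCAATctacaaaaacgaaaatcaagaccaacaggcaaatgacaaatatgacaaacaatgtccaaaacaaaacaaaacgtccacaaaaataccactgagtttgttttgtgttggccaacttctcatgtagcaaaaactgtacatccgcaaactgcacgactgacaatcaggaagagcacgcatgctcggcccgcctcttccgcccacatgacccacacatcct
The D-box TTATGTAA was found in 0 of the 7 windows and in 0.938% of all windows.

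Utp20 was higher under the high-fat diet over the whole day. Its level was 4.33 to 9.79 FPKM with a median of 6.77 in the 18 high-fat libraries, against 2.55 to 5.38 FPKM with a median of 3.63 in the 18 chow libraries. In 17 of 18 high-fat libraries it lay above every chow library, and 14 of 18 chow libraries lay below every high-fat library. The means were 6.89 ± 1.3 FPKM under the high-fat diet and 3.70 ± 0.88 FPKM under chow (SD, n = 18 each), a ratio of 1.86. Averaged over the 6 times, the difference was 0.82 ± 0.06 (SE) on the log2(FPKM + 0.5) scale, with an adjusted p of 5.387e-11 by limma. This scale understates changes of low genes. Of all 11144 genes tested, those with a mean FPKM of at least 1, 31 had a larger rise and 5 a smaller p. The genes called higher in this comparison were 5.25% of those tested and those called lower 11.4%. The average over the times does not enter the rhythm difference for which Utp20 was chosen. Both are judged against the spread between the same 36 libraries, so the p and the rank by p are not free of that choice. The labels number the replicates without saying more of their origin, so p-values measure the spread between these samples. In whole tissue, a change in the share of a cell type and a change in RNA per cell cannot be told apart.

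**Figure D1:**
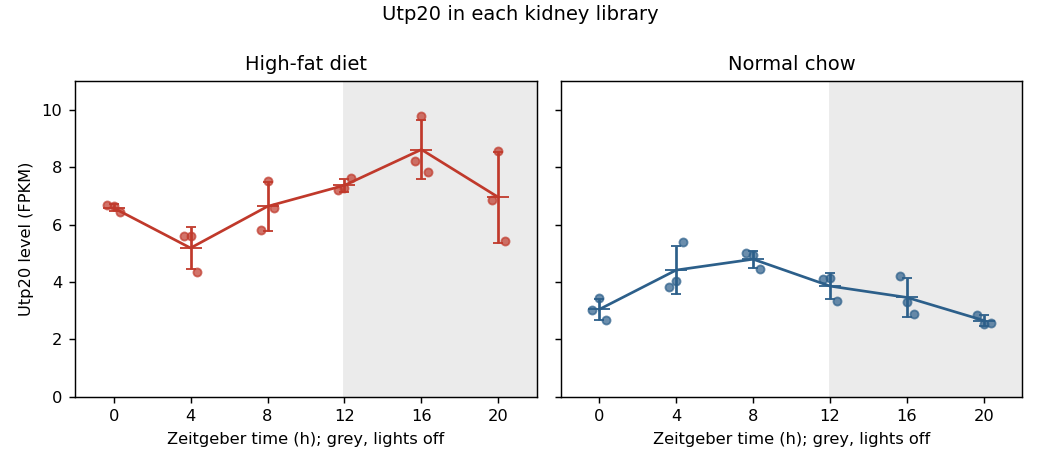
Utp20 level (FPKM) against zeitgeber time in each of the 36 libraries, with the high-fat diet on the left and normal chow on the right; points are libraries, horizontal bars means, error bars SD (n = 3) and grey the dark phase. High-fat means lie between 5.18 FPKM at ZT4 and 8.61 FPKM at ZT16, and chow means between 2.65 FPKM at ZT20 and 4.79 FPKM at ZT8.

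At the start of the light phase, ZT0, Utp20 had 6.67, 6.63 and 6.44 FPKM in high-fat kidneys, against 3.03, 3.43 and 2.67 FPKM in chow kidneys. At ZT4 it had 5.61, 5.61 and 4.33 FPKM in high-fat kidneys, against 3.83, 4.03 and 5.38 FPKM in chow kidneys. ZT4 was the only time at which the diets overlapped. The chow value of 5.38 FPKM came from replicate 4, which had the steepest fall of values with transcript GC content (-0.371 log2 per 10 points of GC). The high-fat value of 4.33 FPKM came from replicate 5, the library of lowest relative depth (0.358). Its values rose most steeply with GC content among high-fat libraries (0.255). Chow replicates 2 and 3 held adrenal transcripts (Cyp21a1 at 262 and 163 FPKM). The part of these traits in the overlap was not tested. At ZT8 the values were 5.82, 7.51 and 6.57 FPKM in high-fat kidneys, against 5.00, 4.93 and 4.45 FPKM in chow kidneys. These chow values were the closest to the high-fat ones among the times without overlap.

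At ZT12, when the lights went off, Utp20 had 7.21, 7.26 and 7.63 FPKM in high-fat kidneys, against 4.09, 4.13 and 3.35 FPKM in chow kidneys. In the dark phase at ZT16 it had 8.21, 9.79 and 7.84 FPKM in high-fat kidneys, against 4.21, 3.29 and 2.88 FPKM in chow kidneys. At ZT20 it had 6.87, 8.57 and 5.41 FPKM in high-fat kidneys, against 2.86, 2.55 and 2.56 FPKM in chow kidneys. The ratio of the means, high-fat over chow, was thus widest in the dark, at 2.49 at ZT16 and 2.62 at ZT20, and narrowest at ZT4 with 1.17 and ZT8 with 1.38. It was 2.16 at ZT0 and 1.91 at ZT12. The high-fat samples lay above all chow samples at 5 of 6 times, a pattern found for 0.592% of the genes tested. At single times, this held for 6.76% of genes at ZT0, 2.34% at ZT4, 7.83% at ZT8, 5.43% at ZT12, 7.12% at ZT16 and 6.08% at ZT20.

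The daily course differed in shape. A cosine of 24 h fitted to the log2 values peaked at 15.6 ± 0.88 h (SE) under the high-fat diet, in the dark phase, and at 7.96 ± 0.66 h under chow, in the light phase. The peak was 7.61 ± 1.10 h later under the high-fat diet. Peak and trough differed by 0.53 ± 0.12 log2 (1.44-fold) under the high-fat diet and by 0.70 ± 0.12 log2 (1.63-fold) under chow. Between times 12 h apart, ZT16 lay 0.69 log2 above ZT4 under the high-fat diet and differed from it by -0.31 log2 under chow. ZT20 lay 0.05 log2 above ZT8 under the high-fat diet and differed from it by -0.75 log2 under chow.

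The difference in Utp20 level remained under every alternative run. On leaving out each library in turn it was 0.80 to 0.85 log2. With an adipocyte score as covariate it was 0.80 log2 (limma, adjusted p = 6.12e-08), and without the 4 libraries with adrenal transcripts 0.76 log2 (adjusted p = 4.92e-09). Leaving out those 4 keeps only replicate 4 of the chow samples at ZT4. With ZT4 also left out, an alternative chosen after seeing the data, the Utp20 difference was 0.92 log2 (adjusted p = 7.88e-10). The nearest protein-coding gene, Arl1 (a small GTPase), lies 2513 bases away on the opposite strand. Arl1 averaged 29.6 ± 9.37 FPKM under the high-fat diet and 30.4 ± 13.7 FPKM under chow, a difference of 0.00 ± 0.14 log2 (adjusted p = 0.997). The sources used here do not say whether 1 normalisation run made the tables of both diets, so a difference between runs and a difference between diets cannot be told apart for any level.

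The 9 other members did not share the rise of Utp20. Of the 9, 0 were higher, 2 were lower and 7 did not pass (limma, adjusted p under 0.05). Of all genes tested 5.25% were called higher and 11.4% lower. The difference was below 0 for 8 of the 9, and for 6831 of all 11144 genes tested. Their median was -0.117 log2, beside -0.031 log2 over all genes tested. Among all genes called, 68.4% were lower under the high-fat diet, and this share was 50% after median ratio rescaling, 54.7% after upper quartile rescaling and 43% after removing each library's trend over GC content.

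**Figure D2:**
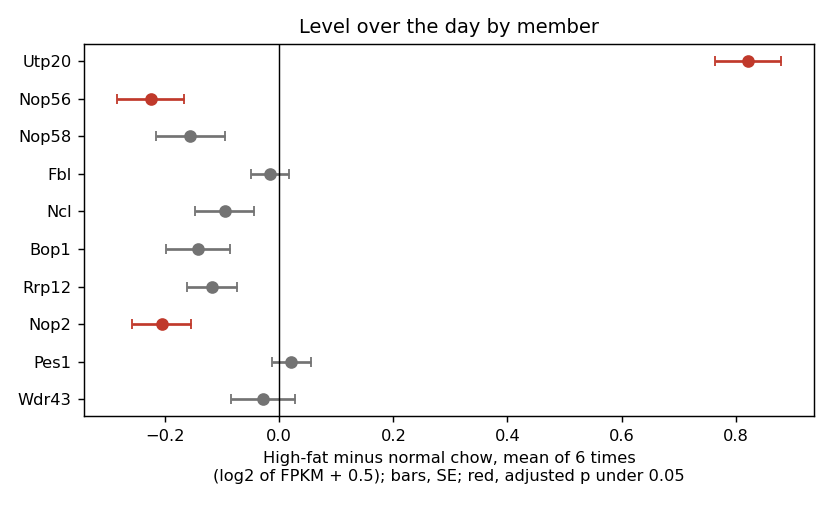
Difference in level over the day, high-fat diet minus normal chow, for each of the 10 members on the log2(FPKM + 0.5) scale; points are limma estimates over 36 libraries, bars SE, and red marks an adjusted p under 0.05. Utp20 stands at 0.82, and Nop56 and Nop2 at -0.23 and -0.21.

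Within the box C/D snoRNP core, Nop56 (chr2:130274430-130279313, plus strand) had 7.76 to 10.6 FPKM with a median of 9.52 under the high-fat diet, against 8.09 to 14.0 FPKM with a median of 11 under chow. The ranges overlapped, and 9 chow libraries lay above every high-fat library. Nop56 averaged 9.36 ± 0.899 FPKM under the high-fat diet and 11.1 ± 1.68 FPKM under chow (SD, n = 18 each), a difference of -0.23 ± 0.06 log2 (limma, adjusted p = 0.0077). Its partner Nop58 (chr1:59684971-59719044, plus strand) averaged 5.92 ± 0.675 FPKM (high-fat) and 6.70 ± 1.06 FPKM (chow), a difference of -0.16 ± 0.06 log2 that did not pass (adjusted p = 0.0769). Fbl, the enzyme of the complex (chr7:28169710-28179269, plus strand), averaged 45.6 ± 3.38 FPKM (high-fat) and 46.2 ± 4.72 FPKM (chow) (-0.02 ± 0.03 log2, adjusted p = 0.794). Nop56 overlaps Idh3b, a mitochondrial dehydrogenase subunit at 221 FPKM (high-fat) and 220 FPKM (chow), on the opposite strand. The TruSeq v2 kit does not mark strand, so reads from such overlaps cannot be told apart. The annotation places 5 snoRNA genes inside Nop56, 4 inside Nop58, 3 inside Ncl and 3 inside Wdr43.

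Among the large subunit factors, Nop2 (chr6:125131909-125144753, plus strand) had 7.33 to 12.6 FPKM with a median of 9.44 under the high-fat diet, against 7.91 to 13.8 FPKM with a median of 11.2 under chow. The ranges overlapped, and 4 chow libraries lay above every high-fat library. Nop2 averaged 9.47 ± 1.21 FPKM under the high-fat diet and 11.1 ± 1.73 FPKM under chow, a difference of -0.21 ± 0.05 log2 (limma, adjusted p = 0.00615). Bop1 (chr15:76452989-76477277, minus strand) averaged 15.1 ± 1.35 FPKM (high-fat) and 16.8 ± 2.4 FPKM (chow), a difference of -0.14 ± 0.06 log2 that did not pass (adjusted p = 0.0795). Bop1 overlaps Mroh1, which had 14.5 FPKM (high-fat) and 14.0 FPKM (chow), and Scx on the opposite strand. Its partner Pes1 (chr11:3963975-3980004, plus strand), which overlaps a gene model on the opposite strand, averaged 16.4 ± 1.19 FPKM (high-fat) and 16.2 ± 1.49 FPKM (chow) (0.02 ± 0.03 log2, adjusted p = 0.729). The 2 proteins of 1 complex thus differed in the sign of their estimates, and neither passed.

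Of the factors of transcription, early processing and export, Ncl (chr1:86344719-86359400, minus strand) averaged 20.4 ± 2.01 FPKM under the high-fat diet and 21.9 ± 3.03 FPKM under chow (-0.10 ± 0.05 log2, limma adjusted p = 0.217). Wdr43 (chr17:71615895-71659031, plus strand), which belongs to the same processome as Utp20, averaged 4.42 ± 0.506 FPKM (high-fat) and 4.54 ± 0.778 FPKM (chow) (-0.03 ± 0.06 log2, adjusted p = 0.785). Rrp12 (chr19:41862851-41896173, minus strand), like Utp20 a protein of helical HEAT repeats, averaged 1.75 ± 0.277 FPKM (high-fat) and 1.95 ± 0.347 FPKM (chow) (-0.12 ± 0.04 log2, adjusted p = 0.0647). None of these 3 passed.

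The lower calls were smaller and less stable than the rise of Utp20. Nop56 and Nop2 held on leaving out any of the 36 libraries. With the adipocyte score as covariate 0 of the 9 members were lower, while over all genes the lower calls were 4.68% in that fit, against 11.4% without the score. The estimates with the score were -0.21 log2 for Nop56 (limma, adjusted p = 0.12) and -0.19 log2 for Nop2 (adjusted p = 0.102). Without ZT0 and ZT4 Nop56 also missed the threshold (-0.20 log2, adjusted p = 0.0722). After removing the GC trend 4 of the 9 members were lower, beside 8.04% of all genes. Nop58 (-0.19 log2, limma adjusted p = 0.00649) and Ncl (-0.11 log2, adjusted p = 0.0153) were added. Without the libraries with adrenal transcripts Nop58 differed by -0.22 log2 and Ncl by -0.18 log2. There the chow level at ZT4 rests on replicate 4 alone, in which Nop58 and Ncl were the highest of all chow libraries. With ZT4 left out as well, neither passed. Nop56 (-0.24 log2, limma adjusted p = 0.0172), Nop2 (-0.22 log2, adjusted p = 0.0116) and Bop1 (-0.15 log2, adjusted p = 0.0387) were then lower, beside 10.9% of all genes. Nop58 also passed without the chow ZT4 replicate 2 (adjusted p = 0.00918), and Bop1 without the chow ZT4 replicate 4 (adjusted p = 0.0106) or ZT12 replicate 2 (adjusted p = 0.0457). Rrp12 passed without the high-fat ZT12 replicate 2 (adjusted p = 0.031) or ZT20 replicate 1 (adjusted p = 0.0338), or the chow ZT12 replicate 5 (adjusted p = 0.0494) or ZT16 replicate 5 (adjusted p = 0.0499). The part of adipose and adrenal RNA in the levels of these members was not tested.

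Time by time, 0 of the 54 differences of the 9 members between diets passed (limma, smallest adjusted p = 0.155, at ZT0), and 8 had an unadjusted p under 0.05. Over all genes, 1.59% passed at ZT0, 1.61% at ZT4, 0.332% at ZT8, 0.368% at ZT12, 0.556% at ZT16 and 0.26% at ZT20. Lights on was the time with the most members apart. At ZT0, 5 of the 9, Nop56, Fbl, Bop1, Rrp12 and Nop2, had all high-fat samples below all chow samples, as had 12.8% of all genes. Nop56 had 9.95, 9.33 and 9.59 FPKM in high-fat kidneys at ZT0, against 14.0, 10.5 and 13.7 FPKM in chow kidneys. Nop2 had 10.5, 9.22 and 9.23 FPKM (high-fat), against 13.2, 10.7 and 13.8 FPKM (chow). Rrp12 had 1.98, 1.84 and 1.97 FPKM (high-fat), against 2.33, 2.36 and 2.48 FPKM (chow). The high-fat over chow ratio of the means at ZT0 was 0.754 for Nop56, 0.766 for Nop2 and 0.808 for Rrp12, while that of Utp20 was 2.16. At ZT20, 3 members (Nop56, Nop58 and Nop2) were apart in this direction, beside 10.3% of all genes. At ZT4 and ZT8 Rrp12 alone was apart, at ZT12 Ncl and at ZT16 Nop58, beside 9.43%, 8.16%, 8.61% and 8.06% of all genes. Without the libraries with adrenal transcripts, 3 differences passed, those of Nop58, Ncl and Wdr43 at ZT4, where 1 chow library, replicate 4, is then left and 44.4% of all genes passed. With ZT4 also left out, 0 passed.

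**Figure D3:**
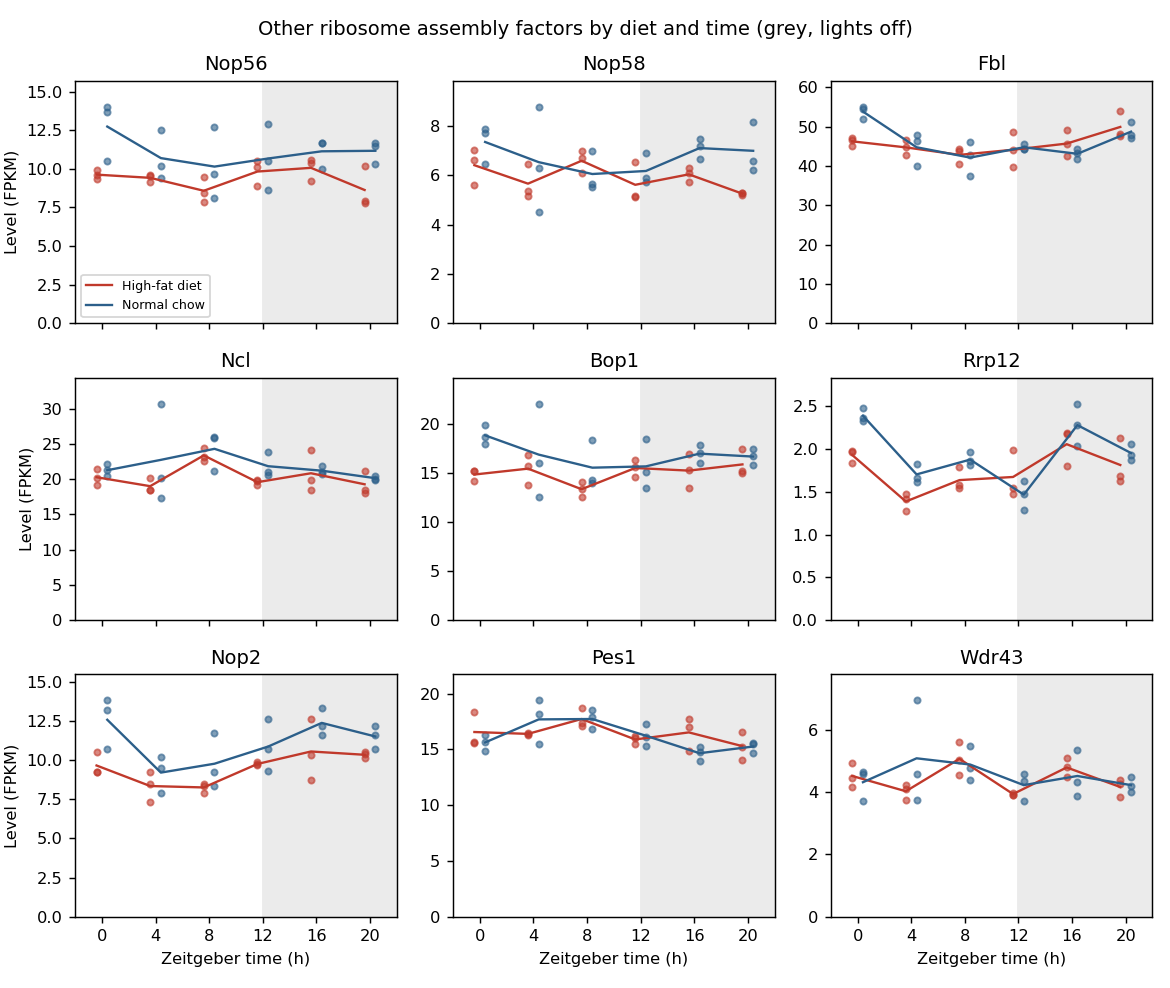
Level (FPKM) of the 9 other members against zeitgeber time; points are libraries (red, high-fat diet; blue, normal chow), lines join the means of 3 and grey is the dark phase. At ZT0 the red points lie below the blue ones for Nop56, Fbl, Bop1, Rrp12 and Nop2, and the Rrp12 lines show high values at ZT0 and ZT16 and low ones at ZT4 and, under chow, also at ZT12.

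The fitted rhythms of the 9 members had a median peak-to-trough difference of 0.132 log2 under the high-fat diet and 0.262 log2 under chow. Over all genes tested the medians were 0.19 and 0.234 log2. Under the high-fat diet 1 of 9 passed the cosine test (7.3% of all genes passed). This was Nop2, which peaked at 17.9 ± 0.925 h (SE) with a peak-to-trough difference of 0.36 ± 0.09 log2 (limma, adjusted p = 0.0375, n = 18). The Nop2 call was lost on leaving out 13 of the 36 libraries in turn, all of them high-fat (adjusted p = 0.0514 to 0.078). They were replicates 3 and 4 of ZT0, 3 and 5 of ZT4, 1, 2 and 5 of ZT8, 2 of ZT12, 3 and 4 of ZT16 and 1, 3 and 4 of ZT20. It was also lost with the replicate block (0.31 log2, adjusted p = 0.144), in 1 fit over all 36 libraries (adjusted p = 0.0878), with time as a factor (adjusted p = 0.0683), without ZT0 and ZT4 (adjusted p = 0.211), and without ZT4 and the adrenal libraries (adjusted p = 0.132). Under chow 0 of 9 passed (7.77% of all genes passed), and 4 had an unadjusted p under 0.05 by the same limma test. Among them were Pes1 (peak at 6.25 h, adjusted p = 0.0613), Fbl (22.7 h, adjusted p = 0.0826) and Nop2 (18.8 h, adjusted p = 0.132). Pes1 passed under chow without ZT4 replicate 3, and Fbl without ZT4 replicate 4. The rhythms of 0 of 9 members differed between the diets, and 0 had an unadjusted p under 0.05 (limma). Over all genes 0.0269% passed this test, and 353 of 11144 had an unadjusted p under 0.05.

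Rrp12 moved between times 12 h apart under both diets. At ZT16 it had 1.8, 2.18 and 2.19 FPKM in high-fat kidneys, against 1.41, 1.47 and 1.28 FPKM at ZT4, a difference of 0.43 ± 0.11 log2 (limma, adjusted p = 0.0201; 5.48% of all genes passed). These groups did not overlap. The call was lost without the high-fat ZT4 replicate 5 (adjusted p = 0.132), the library of lowest relative depth, or ZT16 replicate 3 (adjusted p = 0.0847), and with the replicate block (adjusted p = 0.0663). Under chow it had 1.48, 1.63 and 1.29 FPKM at ZT12, against 2.33, 2.36 and 2.48 FPKM at ZT0, a difference of -0.56 ± 0.11 log2 (adjusted p = 0.00127; 8.81% of all genes passed). This call held on leaving out each library in turn (adjusted p up to 0.0162). In all, 4 of the 54 differences of the 9 members over 12 h passed. The others were Fbl under chow, with 45.5, 44.4 and 44.4 FPKM at ZT12 against 54.6, 51.9 and 55.0 FPKM at ZT0 (-0.26 ± 0.08 log2, adjusted p = 0.0401), and Nop2 under chow, with 13.3, 11.6 and 12.2 FPKM at ZT16 against 10.2, 9.48 and 7.91 FPKM at ZT4 (0.42 ± 0.13 log2, adjusted p = 0.0474; 6.16% of all genes passed). Fbl lost its call without any of the 6 libraries compared (adjusted p = 0.0509 to 0.116). It also lost it after median ratio rescaling (-0.15 log2, adjusted p = 0.372), after upper quartile rescaling (adjusted p = 0.121), after removing the GC trend (-0.13 log2, adjusted p = 0.32), with the replicate block (adjusted p = 0.0671) and without the adrenal libraries (adjusted p = 0.0689). Nop2 lost its own on leaving out 23 of the 36 libraries in turn, with the highest adjusted p (0.186) without the chow ZT16 replicate 1, and also with no filter (adjusted p = 0.0648), with the replicate block (adjusted p = 0.0883) and with the adipocyte score (adjusted p = 0.0572). Over the other pairs, ZT12 with ZT0 and ZT20 with ZT8 under the high-fat diet and ZT20 with ZT8 under chow, 0 members passed by limma, beside 3.8%, 4.47% and 3.79% of all genes. There 0, 4 and 2 members had an unadjusted p under 0.05.

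The rest of the ribosome assembly machinery was read from 7 lists of 254 genes, of which 248 were tested. In the list of the small subunit processome and 40S assembly, 1 of 51 genes, Utp20, was higher and 1, Imp4, was lower, with a median difference of -0.06 log2. Utp20 was the single higher gene of this list in every alternative setting. Imp4, which binds the U3 snoRNA with the processome, averaged 15.6 ± 0.662 FPKM under the high-fat diet and 17.2 ± 1.24 FPKM under chow (-0.13 ± 0.03 log2, limma adjusted p = 0.00332), a call lost after removing the GC trend (-0.11 log2, adjusted p = 0.131). The largest rise of any other gene in the 7 lists was that of Mtor at 0.23 log2. Over all lists 21 genes (8.47%) were lower and 5 (2.02%) higher (median -0.06 log2), both below the shares over all genes, 11.4% lower and 5.25% higher. These counts became 4 lower and 1 higher with the adipocyte score as covariate, where all genes had 4.68% lower and 2.51% higher. They became 8 and 4 without ZT0 and ZT4 (7.77% and 5.95% of all genes), and 9 and 10 after median ratio rescaling (7.49% and 7.5% of all genes).

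**Figure D4:**
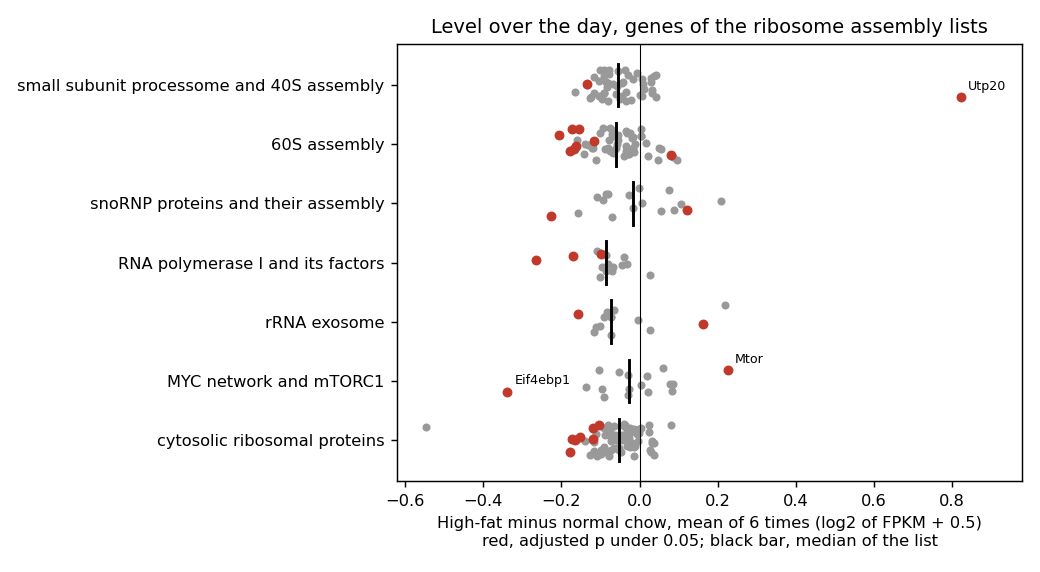
Difference in level over the day, high-fat diet minus normal chow, for the 248 tested genes of 7 lists on the log2(FPKM + 0.5) scale; each point is a gene, red marks an adjusted p under 0.05 and black bars list medians. Utp20 at 0.82 stands alone, while the list medians lie between -0.09 and -0.02, those of the snoRNP and MYC lists moving above 0 after median ratio rescaling.

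For 60S assembly 7 of 55 genes (12.7%) were lower, a share near the 11.4% over all genes, and 1 was higher (median -0.06 log2). Ddx27, an RNA helicase, averaged 8.39 ± 0.99 FPKM under the high-fat diet and 9.52 ± 1.07 FPKM under chow (-0.17 ± 0.05 log2, limma adjusted p = 0.00832), and the nucleolar GTPase Gnl2 averaged 8.43 FPKM (high-fat) and 9.63 FPKM (chow) (-0.18 ± 0.05 log2, adjusted p = 0.00892). Rrp1b averaged 1.24 FPKM (high-fat) and 1.45 FPKM (chow) (-0.17 ± 0.04 log2, adjusted p = 0.00984). Among other settings Ddx27 and Gnl2 lost their calls in 2 of 14 (limma, adjusted p up to 0.266 and 0.126) and Rrp1b in 2 of 13 (up to 0.115). On leaving out each library in turn, these 3 held. The higher gene, Nsa2, averaged 27.8 FPKM (high-fat) and 26.3 FPKM (chow) (0.08 ± 0.03 log2, adjusted p = 0.0318) and lost its call in 11 of 36 such fits. Among 17 snoRNP genes 1 (5.88%) was higher and 1, Nop56, lower, beside 5.25% and 11.4% of all genes, with a median of -0.02 log2. Median ratio rescaling turned the median to 0.02 log2, with 4 genes (23.5%) higher and 1 (5.88%) lower, beside 7.5% and 7.49% of all genes. Upper quartile rescaling gave 3 (17.6%) higher and 1 lower, beside 6.95% and 8.38%. The higher gene without rescaling was Nop10, a protein of the H/ACA snoRNPs that guide pseudouridine formation, at 147 FPKM (high-fat) and 136 FPKM (chow) (0.12 ± 0.04 log2, limma adjusted p = 0.0205). The Nop10 call was lost in 4 of 14 other settings, with adjusted p up to 0.21 with the adipocyte score and 0.117 after removing the GC trend.

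Of 15 genes of RNA polymerase I and its factors, 0 were higher and 3 (20%) lower, beside 5.25% and 11.4% of all genes. The estimate was below 0 for 14 of them, and for 6831 of all 11144 genes tested. Taf1c, a subunit of the promoter selectivity factor, averaged 2.09 ± 0.343 FPKM under the high-fat diet and 2.62 ± 0.414 FPKM under chow (-0.27 ± 0.06 log2, limma adjusted p = 0.00124). The Taf1c call was lost in 1 of 13 other settings (adjusted p = 0.0722) and held on leaving out each library. The polymerase subunits Polr1e (2.91 FPKM high-fat and 3.33 FPKM chow, adjusted p = 0.0361) and Polr1d (105.5 FPKM high-fat and 113 FPKM chow, adjusted p = 0.0464) lost their calls in 14 and 27 of 36 such fits. After median ratio rescaling 1 of the 3 remained, 6.67% of the list beside 7.49% of all genes. Of 14 exosome genes, which trim and degrade RNA precursors, 1 was higher and 1 lower. Exosc7 averaged 31.5 FPKM (high-fat) and 28.2 FPKM (chow) (0.16 ± 0.04 log2, adjusted p = 0.00438, lost with the adipocyte score at 0.11 log2 and adjusted p = 0.234), and Exosc4 14.9 FPKM (high-fat) and 16.7 FPKM (chow) (-0.16 ± 0.05 log2, adjusted p = 0.0421, lost in 20 of 36 such fits).

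Of 79 cytosolic ribosomal proteins 7 (8.86%) were lower, beside 11.4% of all genes, and 0 higher (median -0.05 log2). Examples are Rpl35 at 768 ± 75.8 FPKM under the high-fat diet and 869 ± 115 FPKM under chow (-0.17 ± 0.05 log2, limma adjusted p = 0.0223), Rps12 (884 FPKM high-fat and 961 FPKM chow, adjusted p = 0.0309, lost in 7 of 36 such fits) and Rpl23a (858 FPKM high-fat and 936 FPKM chow, adjusted p = 0.0406, lost in 20). The count of lower ribosomal protein genes was 0 after median ratio rescaling, where 7.49% of all genes were lower. It was also 0 after removing the GC trend (8.04% of all genes lower). Adding the adipocyte score to the fit gave 0 as well, beside 4.68%. Without the adrenal libraries, where 1 chow library is left at ZT4, the list median was -0.0061 log2, beside -0.0523 log2 over all genes. The list median turned to 0.01 log2 after GC correction with the replicate block. The count was 14 (17.7%, beside 10.9% of all genes) without both the adrenal libraries and ZT4.

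Among 17 tested genes of the MYC network and of mTORC1, regulators known to drive ribosome production, 1 was higher and 1 lower. The kinase gene Mtor averaged 21.4 ± 3.62 FPKM under the high-fat diet and 18.4 ± 3.8 FPKM under chow (0.23 ± 0.07 log2, limma adjusted p = 0.0245), a call lost with the adipocyte score as covariate (0.23 log2, adjusted p = 0.145). Eif4ebp1, a translation repressor that mTORC1 inactivates, averaged 12.6 ± 2.83 FPKM (high-fat) and 16.6 ± 6.23 FPKM (chow) (-0.34 ± 0.09 log2, adjusted p = 0.0119). The Eif4ebp1 call was lost with that score (-0.04 log2, adjusted p = 0.863), without the adrenal libraries (-0.20 log2, adjusted p = 0.105) and without both these and ZT4 (-0.23 log2, adjusted p = 0.0597). Myc, a driver of nucleolar genes, averaged 1.71 ± 0.683 FPKM (high-fat) and 1.65 ± 0.756 FPKM (chow) and did not pass in level (0.06 ± 0.11 log2, adjusted p = 0.762). Rhythms were few in all lists. Without Utp20, which was chosen for its rhythm, 5 of 247 genes (2.02%) passed under the high-fat diet and 3 (1.21%) under chow. Over all genes 7.3% passed under the high-fat diet and 7.77% under chow. Those under the high-fat diet include Mtor (peak at 9.22 h, adjusted p = 0.00727), the small subunit endonuclease Nob1 (18.3 h, adjusted p = 0.0292) and Ebna1bp2 of 60S assembly (19.9 h, adjusted p = 0.0428). Those under chow include Myc (peak at 22.2 h, peak-to-trough difference 1.17 log2, adjusted p = 0.00277) and Exosc8 (2.44 h, adjusted p = 0.046). The rRNA methyltransferase Emg1 passed under both, with peaks at 21.8 h under the high-fat diet and 23.3 h under chow (adjusted p = 0.032 and 0.0495).

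Of the 6 genes most like Utp20 over the 12 group means, the 4 reported here were not ribosome assembly factors. By Pearson's r, a description over 12 means that share the diet difference, they were Suox (0.955, sulfite oxidase), Fcamr (0.929, an immunoglobulin receptor), Pcx (0.91, pyruvate carboxylase) and Acad10 (0.908, of the acyl-CoA dehydrogenase family). Suox averaged 48.0 FPKM under the high-fat diet and 32.6 FPKM under chow. Pcx averaged 233 FPKM (high-fat) and 191 FPKM (chow). Among the other members r ran from -0.763 for Nop56 to 0.359 for Pes1.

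**Figure D5:**
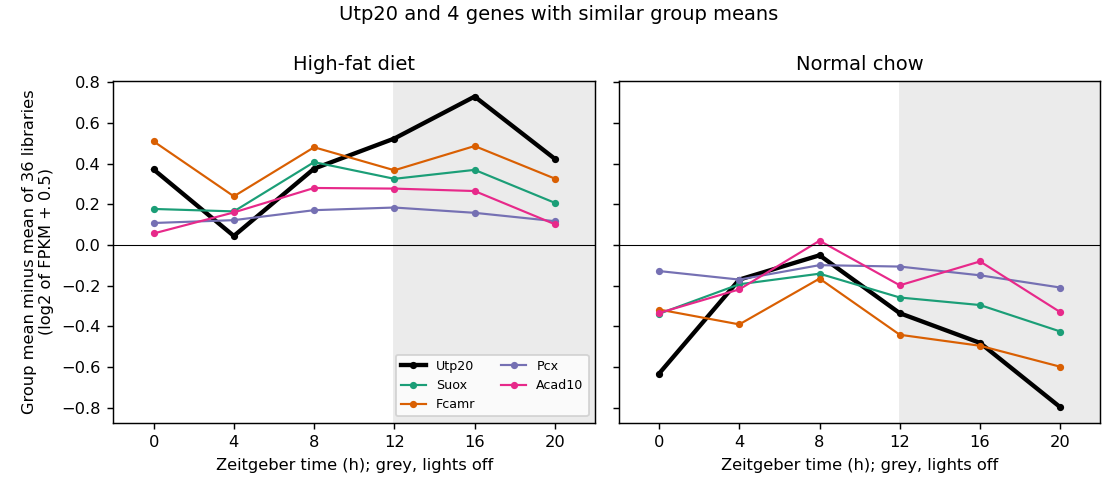
Group means of Utp20 (black) and 4 of the 6 genes with the highest correlation to it, as log2(FPKM + 0.5) minus the mean of the 36 libraries, against zeitgeber time, with the high-fat diet on the left and normal chow on the right. Utp20 lies above 0 at all 6 high-fat times and below 0 at all 6 chow times, as do the 4 genes except Acad10 at ZT8 under chow.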

How the data were processed

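Per the submitters' processing notes, the reads were handled with Bowtie, Cuffnorm and CASAVA 1.8.2 on mm10. The deposited values are FPKM, made by the authors, in 1 table per diet. Per the labels' protocols, TRIzol served to extract RNA and the TruSeq RNA v2 kit to make libraries. Count models do not suit FPKM and were not run. Rows of repeated symbols (817 rows of 280 symbols) were left out. No libraries held identical values. On a subset of 1824 genes, 75.6% of low values were multiples (tolerance 0.1) of the step of 1 fragment, which gave relative depth.

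Values were analysed as log2(FPKM + 0.5) by limma 3.58.1 under R 4.3.3, over 11144 genes whose mean FPKM reached 1 (mean-variance trend, Benjamini-Hochberg threshold of 0.05 over all genes), and Python 3.11.15. The mean of the libraries' median log2 ratios was -0.014 for the high-fat and 0.018 for the chow table over 9689 genes, and median ratio rescaling, which removes this offset, moved the level calls over all genes to 836 higher and 835 lower, against 585 and 1265 without it. Level was the mean of 6 high-fat groups minus that of 6 chow groups in a fit of 12 group means. Rhythm was the F test of cosine and sine terms of 24 h within a diet, and the difference in rhythm that of their interaction with diet. The fits were tested on simulated data. Named genes were the members, the 6 genes most correlated with Utp20, up to 3 called genes by level p per list and direction and up to 2 by rhythm p per list and diet, plus Cyp21a1 and Adipoq. The members and lists were chosen with earlier results of these data known. Of the correlated genes, 2 are not reported here. GC content was known for 96.5% of the genes tested. Alternatives were GC correction, a replicate block, a robust prior, rescalings, other filters and pseudocounts, an adipocyte score, left-out libraries or times (the adrenal libraries together with ZT4 only after seeing the data), 1 fit over 36 libraries and time as a factor.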

Additional observations from a re-analysis of the deposited data

Results flagged for a closer look

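The fitted peak of Utp20 came 7.61 h later under the high-fat diet (15.6 h) than under normal chow (7.96 h). It stands here because the effect of time differed between the diets, the property for which the gene was chosen, so it was not tested again. On leaving out each library in turn the difference was 7.16 to 8.27 h.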

How the results depend on the processing

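The level of Utp20 kept its direction and call in all settings. Its range was 0.75 to 0.93 log2 over 14 of them and 0.80 to 0.85 on leaving out each library. Such fits gave peak-to-trough differences of 0.44 to 0.58 log2 under the high-fat diet and 0.66 to 0.76 under chow, 1 to 1 members higher, 2 to 3 lower, 0 to 1 rhythmic under the high-fat diet and 0 to 1 under chow, 0 to 0 with a different rhythm, and 0 to 2 differences at single times and 2 to 6 over 12 h. These member counts, and the rhythm and 12 h counts that follow, are not set beside shares over all genes in the same fits. A shift over all genes thus cannot be told apart from a shift of the members. The chow rhythm count of 0 became 1 with no filter or a minimum mean of 5 FPKM, with upper quartile rescaling, after GC correction with or without the block, and with time as a factor, and 3 in 1 fit over 36 libraries. The high-fat rhythm count of 1 became 0 without ZT0 and ZT4, in 1 fit over 36 libraries, with time as a factor and without ZT4 and the adrenal libraries (chosen after seeing the data), and 2 after GC correction with the block. The 4 differences over 12 h became 2 at that minimum of 5 FPKM, and 8 after GC correction (7 with the block), counts not set beside shares over all genes. Without ZT0 and ZT4 only ZT20 with ZT8 can be compared, where 0 members passed in all libraries and 1 (Ncl, high-fat) in this setting. Without ZT4 and the adrenal libraries 2 passed (Ncl, high-fat, and Rrp12, chow), ZT16 with ZT4 being missing. The 2 lower members became 4 after GC correction (8.04% of all genes lower) and 4 with the block (7.66%). They became 0 with the adipocyte score (4.68%) and 1 without ZT0 and ZT4 (7.77%). Without the adrenal libraries, where 1 chow library is left at ZT4, Nop58 differed by -0.22 log2 and Ncl by -0.18 log2. The 0 differences at single times became 3 without the adrenal libraries, all at ZT4, where 1 chow library is left and 44.4% of all genes passed, and 0 with ZT4 also left out, a setting with 3 lower members. Beyond this the cause was not tested. The deviations from the group means correlated over 0.1 in 6 of 12 pairs of the same number and time across diets, and in 139 of 475 pairs of other numbers. Since not every pair passed 0.1 and the labels explain no number, the numbers were not taken to pair the samples. With the replicate block, Utp20 differed by 0.80 log2, 0 members were rhythmic under the high-fat diet and 1 difference over 12 h passed. The minimum of 5 FPKM leaves out Rrp12 and Wdr43. Absolute depth is unknown, so no counting error is given.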

Other observations

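In the chow library of ZT4 replicate 4, whose values fell most steeply with GC content (-0.371 log2 per 10 points), the 4 members of lowest transcript GC content stood at the top. Nop58 (41.0% GC, 8.76 FPKM), Ncl (42.8%, 30.7 FPKM), Wdr43 (44.3%, 6.94 FPKM) and Utp20 (46.8%, 5.38 FPKM) were the highest of the 18 chow libraries there. Nop2 (54.9%, 7.91 FPKM) and Bop1 (58.2%, 12.6 FPKM) were the lowest, while Rrp12 (55.8%, 1.83 FPKM) ranked 12 from the top. The part of this trend in the values was not tested.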
